A study of Rattus norvegicus with 250 samples.

Results

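Immediate early genes are transcribed within minutes of neuronal activity, through transcription factors such as CREB and the serum response factor that are already present in the cell, and their transcripts are short-lived. In the hippocampus they are widely used as markers of recent activity, since exploration of a new place, learning and stress are all known to induce them. Fos, Fosb and Junb encode subunits of the AP-1 transcription factor, Egr1 and Egr2 encode zinc finger transcription factors, Npas4 encodes a transcription factor induced by calcium entry, and Nr4a1 encodes an orphan nuclear receptor. Arc encodes a protein that acts at the synapse, and Dusp1 encodes a phosphatase that turns off MAP kinases. The levels of these 9 genes were followed across hippocampal RNA-Seq libraries of F2 rats, as 9 of the 32883 genes in the count table and 9 of the 26138 genes with a read in the rats used. They were picked by identifier as classical activity markers and not by a rule on their levels, although earlier results of these data were known.

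The rats were the grandchildren of an intercross between bred High Responders (bHR) and bred Low Responders (bLR), lines selected for high or low exploration of an unfamiliar enclosure. All rats shared this mixed background, in 12 families, and the labels name no transgene or drug. Death was by decapitation with no anesthetic, at an age of 113 to 132 days. Each library was made from 1 hemisphere of a frozen brain, from tissue cores of dorsal and ventral hippocampus combined per rat. Of 250 libraries, 5 with a failed quality control label were left out, which left 122 males and 123 females. Every rat was tested for locomotion in an unfamiliar enclosure (LocoScore) and on the elevated plus maze (EPM). A recorded score of Pavlovian Conditioned Approach (PavCA), a week-long task in which a lever predicts food, marked 208 rats as trained, and the other 37 rats had no such score and are called untrained. The time from the last test to death was not analysed here. Each library is 1 rat, numbered within its sex in the order of deposit.

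The 9 members were ENSRNOG00000008015 (Fos), ENSRNOG00000046667 (Fosb), ENSRNOG00000042838 (Junb), ENSRNOG00000019422 (Egr1), ENSRNOG00000000640 (Egr2), ENSRNOG00000043465 (Arc), ENSRNOG00000020009 (Npas4), ENSRNOG00000007607 (Nr4a1) and ENSRNOG00000003977 (Dusp1). Only Fosb and Npas4 were paired with their identifiers by a table used here, and the other 7 symbols come with the choice of members. Total counts ranged from 17.9 to 31.5 M reads per library (median 21.6 M), and all 9 members passed the filter on low counts, which kept 19448 genes. Levels are log2 CPM (counts of a gene per M reads of its library), so a difference of 1 is a doubling. Since these were bulk samples, fewer cells of a type and less RNA per cell cannot be told apart.

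Promoter sequence was matched for 7 of the 9 members, as RefSeq windows from 250 bases before to 50 bases after the start site in the GRCr8 assembly, and these were searched on both strands for motifs of activity-driven transcription. The 4 windows of 30 bases below are examples of the matches, with the match in capitals and its place counted from the start site. Whether these sites have a part in how the members vary was not tested.
Dusp1, full cAMP response element, -124 to -117, chr10:17184718-17184747, + strand: ggcagggcgggTGACGTCAccacccggtca
Egr2, CArG box, -83 to -74, chr20:21054505-21054534, - strand: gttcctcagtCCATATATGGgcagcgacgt
Nr4a1, EGR site on the opposite strand, -73 to -65, chr7:134260055-134260084, + strand: gcgtcagtggCGCCCCCGCccctctccatg
Junb, cAMP response element core, -155 to -151, chr19:40080959-40080988, + strand: gcttcctgacagTGACGcgagccgcctcct

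The full cAMP response element, TGACGTCA, the site bound by CREB, was present in the window of Dusp1 only among the 7 and in 1.83% of all 33469 promoter windows. Its core, TGACG, which the full site contains, was present in 5 of the 7 (Nr4a1, at 4 places, Dusp1, Egr1, Junb and Egr2) and in 21.2% of all windows. The CArG box, bound by the serum response factor, was found in Egr1, at -105 to -96 and at -83 to -74, and in Egr2, and in 1.64% of all windows. The EGR site, GCGNGGGCG, was found in Nr4a1 and in 4.98% of all windows, and the AP-1 site, TGANTCA, in none of the 7 and in 7.33% of all windows. No listed motif was found in the windows of Fosb and Npas4, which says only that these letters are absent from those windows.

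All 9 members were detected in every rat, and all varied several-fold between rats. Among the AP-1 subunits, Fos had a lowest value of 1.06, a median of 2.91 and a highest value of 4.67 log2 CPM over the 245 rats, a 12.2-fold range. Fosb had values of 0.62, 2.35 and 3.75, an 8.76-fold range, and Junb 4.87, 5.70 and 6.89, a 4.04-fold range. Junb thus had the narrowest range of the 9 members, and it was also the member with the smallest spread (SD 0.35 log2 units).

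The zinc finger gene Egr2 had the widest range, 60.7-fold, with a lowest value of -2.41, a median of 0.21 and a highest value of 3.52 log2 CPM. Its counts were also the lowest, from 3 to 238 reads, so part of its spread is counting error. Egr1 had a lowest value of 4.19, a median of 5.54 and a highest value of 6.79, a 6.06-fold range over 394 to 2659 reads. Npas4 had values of -1.55, 1.13 and 3.09, a 25.0-fold range over 7 to 177 reads, and Nr4a1 values of 2.96, 4.46 and 6.04, an 8.47-fold range. Of the effectors, Arc had a lowest value of 3.79, a median of 5.39 and a highest value of 7.00, a 9.26-fold range, and Dusp1 values of 3.21, 4.06 and 5.39, a 4.56-fold range.

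After the covariates of the study's model were fitted (sex, percentages of ribosomal and intergenic reads, dissector, training, sequencing batch and LocoScore), the members varied more than most genes. The residual SD of Egr2 was at percentile 99.0 of the 13777 genes with a mean of at least 1 CPM, that of Npas4 at 98.5, of Fos at 96.5, of Arc at 94.1 and of Nr4a1 at 92.3. Dusp1 was at percentile 90.5, Fosb at 88.1, Egr1 at 87.5 and Junb at 78.9. Low counts raise this percentile for Egr2 and Npas4, whereas Arc and Egr1 had at least 245 reads in every rat. As measured, before the covariates, the SD of Junb was at percentile 43.9 of the same genes and that of Dusp1 at 57.6.

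The extreme values lay in a few rats. The 9 highest values were held by 4 rats and the 9 lowest by 7 rats. Female 48, untrained and killed on 18 December, had the highest value of 6 members (Fos 4.67, Junb 6.89, Egr1 6.79, Egr2 3.52, Npas4 3.09 and Dusp1 5.39) and was among the 10 highest rats for 8 of the 9. The other 3 were trained females: Female 37 (18 December) had the highest Nr4a1, 6.04, Female 3 (18 December) the highest Arc, 7.00, and Female 59 (17 December) the highest Fosb, 3.75. At the low end Male 26 and Female 92 were each among the 10 lowest rats for 5 members, and Female 92 had the lowest Npas4, -1.55, and Nr4a1, 2.96. The intergenic percentage of Female 48 was 12.7, inside the range of the other rats.

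The members rose and fell together from rat to rat. Over the 36 pairs of members, Pearson's r between residuals had a median of 0.65 and ranged from 0.18 to 0.90 (245 rats, 28 pairs above 0.5 and 0 below 0), and the first principal component of the 9 members held 66.5% of their variance. The closest pair was Arc, the synaptic effector, and Nr4a1, the nuclear receptor, with r = 0.90 and Spearman's rho = 0.91 (permutation p = 1e-05 for each, the smallest that 100000 resamples can give, adjusted p = 1.06e-05). That pair had r = 0.89 without the 2 rats farthest from the median of Arc, 0.90 in males and 0.89 in females, and 0.90, 0.89 and 0.91 in sequencing batches 1, 2 and 3. Egr1 followed Nr4a1 (r = 0.82) and Egr2 (r = 0.81), and Fos followed Egr2 (r = 0.75) and Dusp1 (r = 0.73). The rats come from 12 families and shared test days, so they are not fully independent points.

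**Figure D1:**
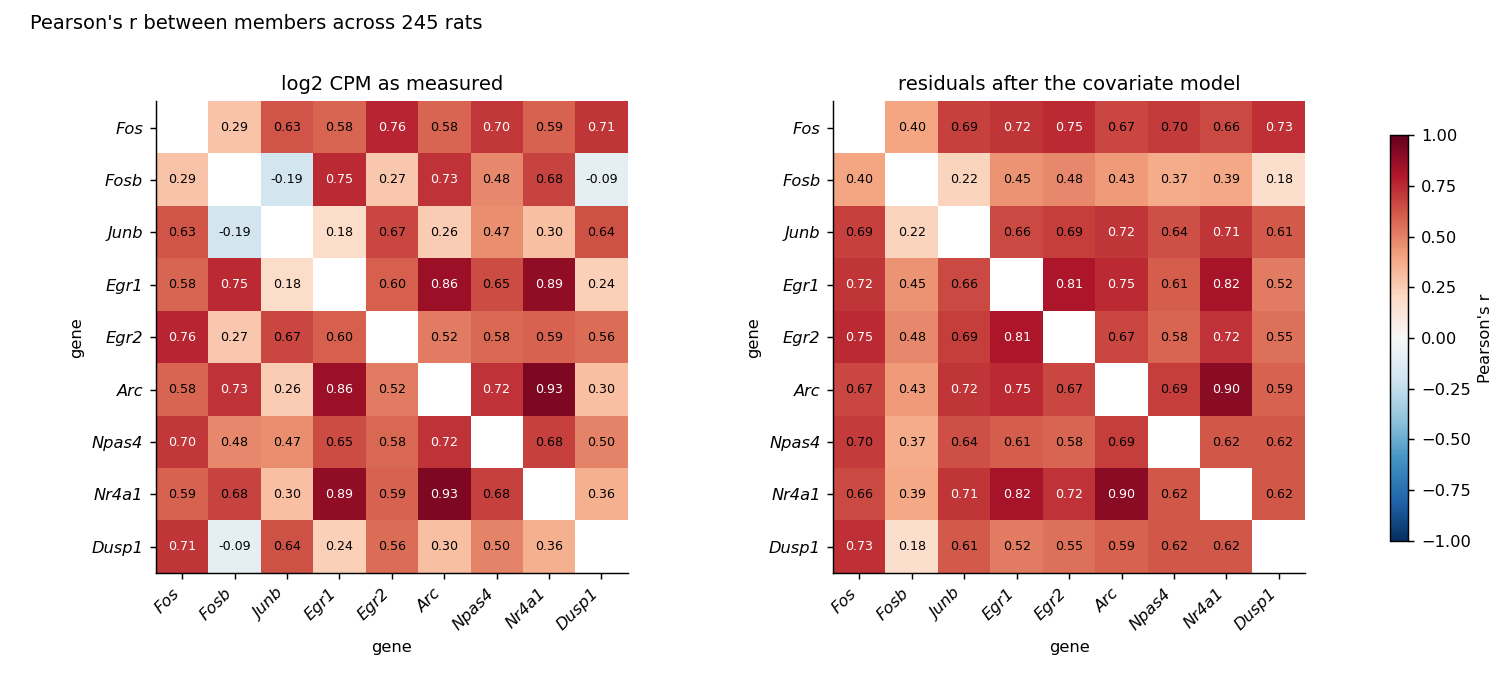
Heat map of Pearson's r between pairs of the 9 members over 245 rats, for log2 CPM as measured and for residuals after the covariates were fitted; the color scale gives r. Residual r was above 0 for all 36 pairs, and the row of Fosb is the palest, with its lowest value, 0.18, against Dusp1.

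Fosb stood least close to the rest. Its residual correlations were 0.22 with Junb (permutation p = 0.00032, adjusted p = 0.000329) and 0.18 with Dusp1 (permutation p = 0.00591, rho = 0.15), and the last of these was -0.01 within sequencing batch 3. Among the 100 genes most correlated with each member, of 13776 others, were 7 or 8 of the 8 other members for every member but Fosb, which had 2. Fosb had the smallest loading on the first component, 0.20, against 0.37 for Nr4a1, and the largest on the second, 0.83. For each member the median r with all other genes lay between -0.03 and 0.02, and the 95th percentile between 0.18 and 0.38.

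As measured, before any covariate, the members differed in how they followed the composition of the RNA. The intergenic percentage, the share of bases outside mRNA, introns and ribosomal RNA, had r = 0.81 with Fosb, 0.69 with Egr1, 0.65 with Arc and 0.60 with Nr4a1, 0.31 with Npas4, 0.07 with Fos and 0.003 with Egr2, and -0.22 with Dusp1 and -0.40 with Junb. The 2 AP-1 genes Fosb and Junb had r = -0.19 as measured and 0.22 as residuals, and Fosb and Dusp1 had -0.09 (permutation p = 0.153) as measured. The pair of Arc and Nr4a1 had r = 0.93 as measured. The median of the 36 pairs was 0.59 as measured, with 2 pairs below 0, and the sign of the Fosb-Junb relation changed with the covariates.

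**Figure D2:**
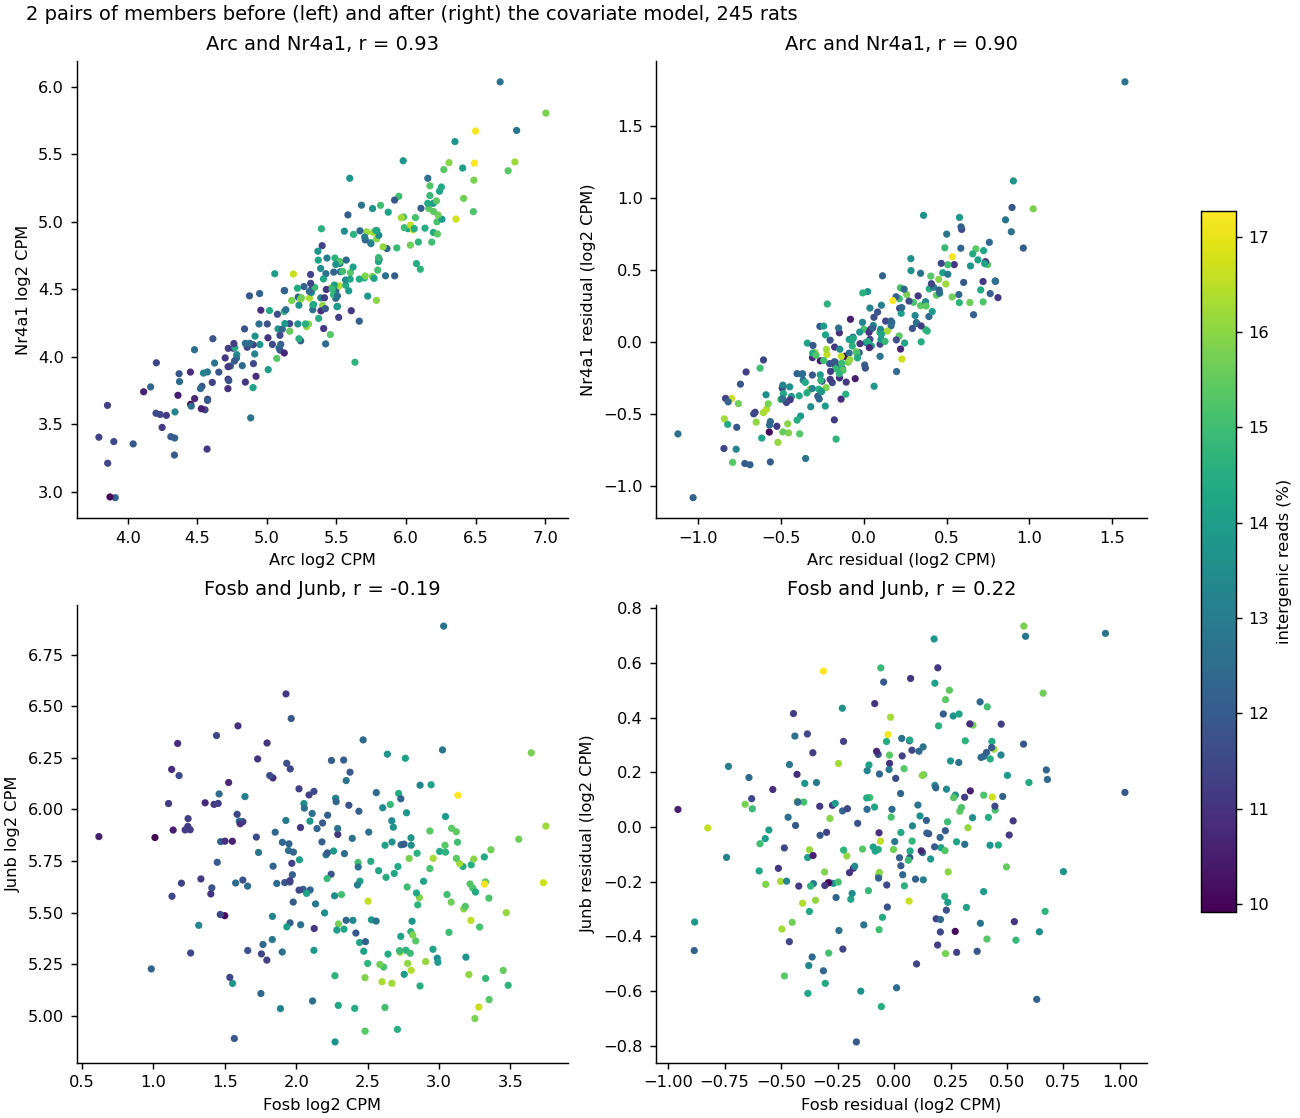
Scatter plots of Arc against Nr4a1 and of Fosb against Junb, in log2 CPM as measured and as residuals in log2 units, with 1 point per rat (245) colored by intergenic percentage. Arc and Nr4a1 lie along a line in both panels, with r = 0.93 and 0.90, whereas the Fosb and Junb cloud slopes down as measured, with the color ordered along Fosb, and slightly up as residuals.

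The median r between residuals, 0.65 over all rats, was similar in most subsets of rats and lower in sequencing batch 3 and in untrained rats. It was 0.66 in males, 0.67 in females, 0.69 and 0.68 in sequencing batches 1 and 2, and 0.52 in batch 3. It was 0.67 among trained and 0.59 among the 37 untrained rats, and 0.59 for values as measured taken as deviations from the mean of each date of death. Whether these medians differ was not tested.

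Of other genes, ENSRNOG00000015719 (r = 0.74) and ENSRNOG00000004100 (r = 0.67) had the residuals most like the mean of the 9 members over 245 rats, and the 10 most alike ranged from 0.54 to 0.74. Over the 13768 genes compared, r with that mean had a median of 0.01 and a 95th percentile of 0.25. From a list of 49 other activity-regulated genes, 5 could be paired with an identifier. Dusp5, a phosphatase for ERK, had r = 0.47, Homer1, a scaffold protein with an activity-induced short form, 0.40, and Plk2, a kinase of synaptic homeostasis, 0.35. Sgk1, a kinase induced by glucocorticoids, had 0.20 and the prohormone convertase Pcsk1 had -0.03. Of the markers, the neuronal gene Mef2c had r = 0.36 and Rbfox3 0.24, the astrocyte gene Gfap 0.17, the choroid plexus gene Folr1 -0.14 and Tcf7l2, a marker of thalamus, -0.02.

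Date of death was examined because the rats were killed on 9 days in December, males on 4, 5, 6, 9, 10 and 11 December and females on 13, 17 and 18 December, so date and sex cannot be told apart between the sexes and dates were compared within each. In males, 3 members differed between dates at a false discovery rate (FDR) of 0.10 with limma-voom, beside 35.9% of all genes: Arc (adjusted p = 0.0311), Npas4 (adjusted p = 0.0545) and Nr4a1 (adjusted p = 0.0804). The 3 are near the share of genes in general, so the values by date that follow are not particular to the members. As measured, Arc had a lowest value of 3.85, a median of 4.28 and a highest value of 6.16 in the 9 males of 6 December, and of 4.16, 5.48 and 6.50 in the 55 males of 11 December. The males of 10 December (28 rats) had 3.86, 5.15 and 6.25, and the males of 5 December (10 rats) 4.76, 5.41 and 6.41. The low median of 6 December came from its 6 trained rats (mean 4.25), since its 3 untrained rats had a mean of 5.80, and the ranges of all these dates overlapped. Values adjusted for the covariates, here and below, still held the differences by training and by sex. Adjusted Arc had a mean of 5.27 in trained and 5.78 in untrained rats, and of 5.26 in males and 5.43 in females. Its adjusted median was highest on 4 December (5.76) and 5 December (5.59), when all males killed were untrained. It was 5.00 on 6 December, 5.12 on 9 December, 4.95 on 10 December and 5.33 on 11 December.

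**Figure D3:**
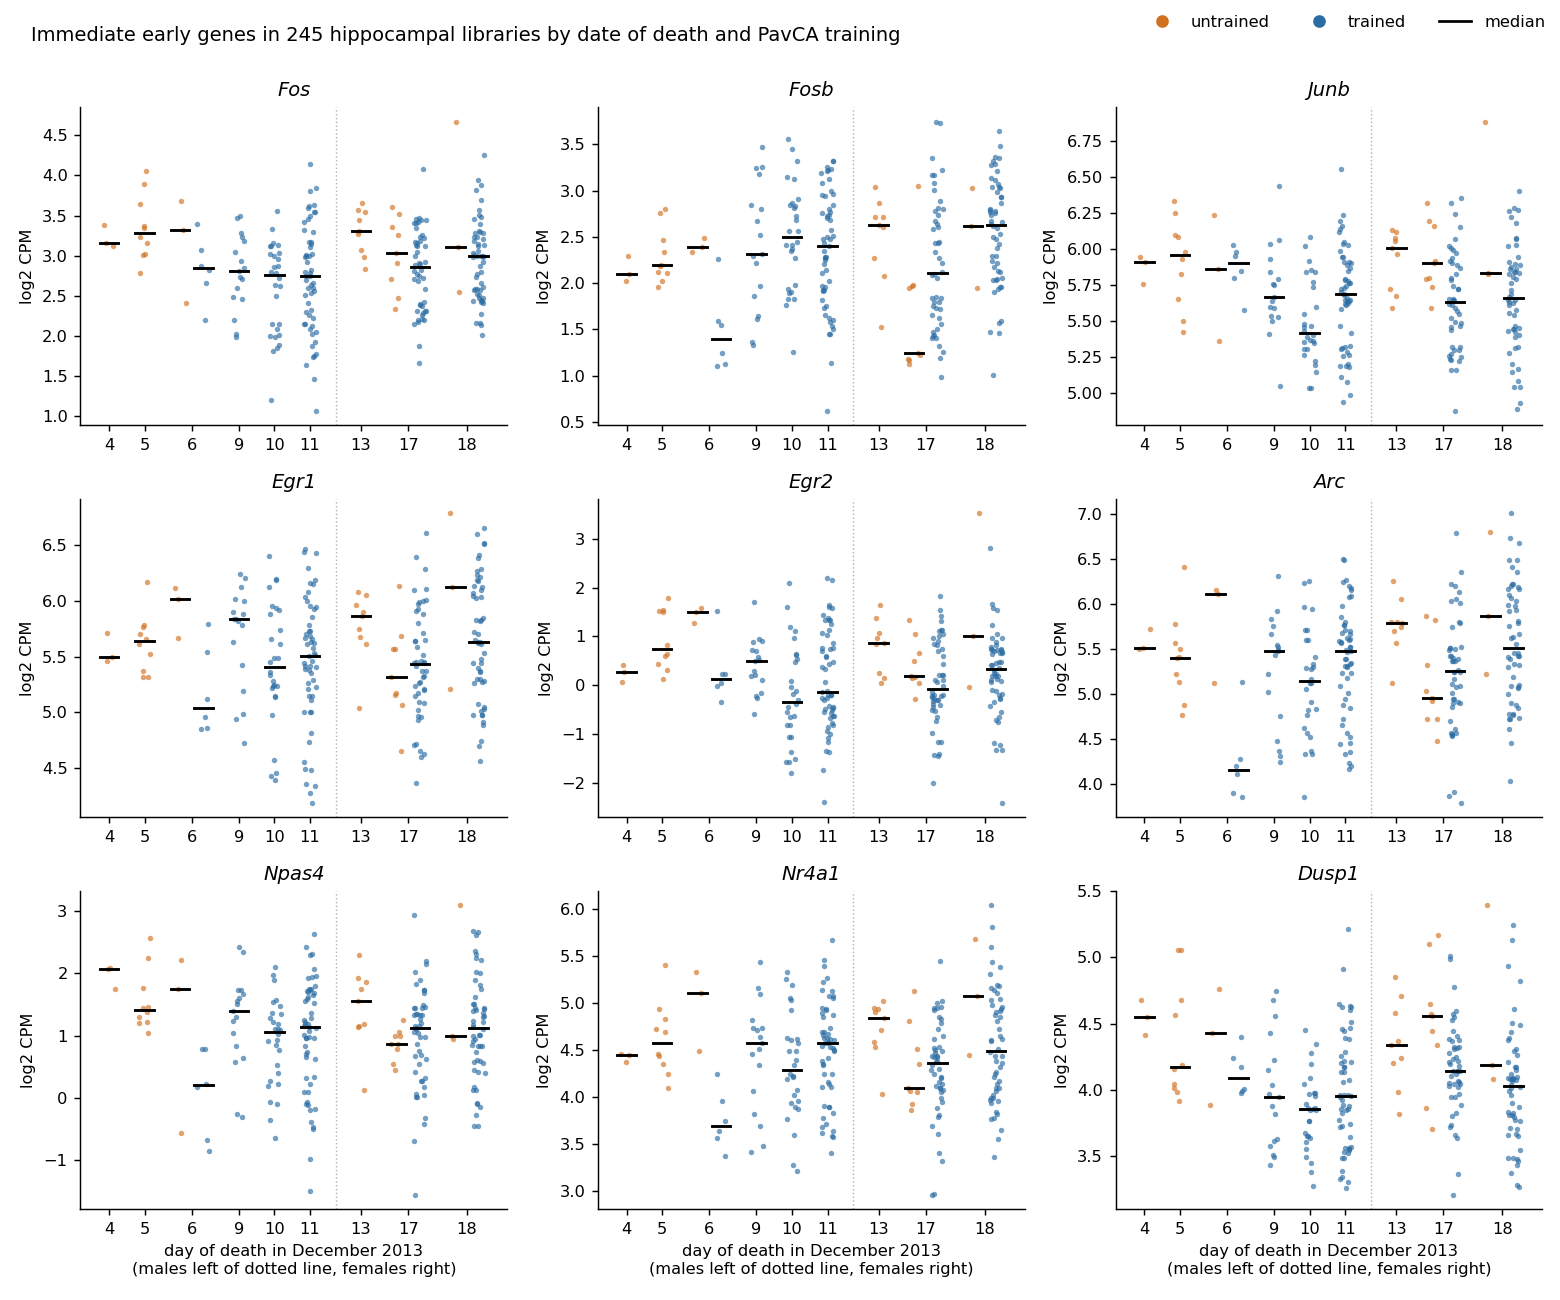
Log2 CPM of the 9 members by date of death in December, with 1 point per rat, trained and untrained rats in different colors and a bar at each group's median; males were killed up to 11 December and females from 13 December. Values overlap between all dates in most panels, and the trained males of 6 December lie low for Arc, Nr4a1 and Fosb.

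Npas4 on the 3 males of 4 December was 1.76, 2.07 and 2.08, all 3 above the medians of every later date in males. On 6 December its lowest value, median and highest value were -0.85, 0.23 and 2.22, on 9 December -0.30, 1.39 and 2.43 and on 11 December -1.48, 1.13 and 2.63. The males of 4 and 5 December were all untrained and those of 9 to 11 December all trained, so date and training cannot be told apart across these dates. Among trained males alone 2 members passed, Arc (adjusted p = 0.0126) and Nr4a1 (adjusted p = 0.0514), beside 27.7% of all genes. These 2 are likewise near the share of genes in general. Nr4a1, adjusted for the covariates, had medians of 4.27 on 9 December, 4.08 on 10 December and 4.40 on 11 December over all males of those dates. No member passed with dissection day in place of sequencing batch among trained males, although 3 had an unadjusted p under 0.05.

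In females 3 members differed between dates, beside 14.3% of all genes: Egr2 (adjusted p = 0.0335), Junb (adjusted p = 0.0338) and Fos (adjusted p = 0.0449). Egr2 had a lowest value of 0.05, a median of 0.87 and a highest value of 1.64 on 13 December (9 rats), of -2.0, 0.11 and 1.82 on 17 December (57 rats) and of -2.41, 0.36 and 3.52 on 18 December (57 rats). Fos had values of 2.84, 3.31 and 3.65 on 13 December, 1.66, 2.89 and 4.08 on 17 December and 2.01, 2.99 and 4.67 on 18 December. Junb had medians of 6.01, 5.65 and 5.69 on these dates. The females of 13 December, all untrained, thus had the highest medians within ranges that overlapped the other dates. With training added to the model 0 of the 3 passed (Fos adjusted p = 0.339, Junb 0.398, Egr2 0.38), and between the trained females of 17 and 18 December 0 members and 0% of all genes passed, with 0 members and 1714 genes (8.81%) at an unadjusted p under 0.05.

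The dissection was done on 10 days, and 7 of the 9 members differed between them, beside 64.2% of all genes: Arc (adjusted p = 0.000311), Junb (0.000721), Npas4 (0.00259), Nr4a1 (0.0113), Fos (0.0172), Egr2 (0.0246) and Fosb (0.0303), but not Egr1 (0.101) or Dusp1 (0.336). The 7 are near the share of genes in general. The values adjusted for the covariates still held the difference by training. In them the median of Egr2 ran from -0.37 on day 10 to 0.97 on day 14. That of Npas4 ran from 0.61 on day 1 to 1.59 on day 14, and that of Arc from 4.95 on day 10 to 5.87 on day 14. As measured, Arc had a lowest value of 3.79, a median of 5.25 and a highest value of 6.22 on day 10 (34 rats) and of 4.86, 5.51 and 6.26 on day 14 (19 rats). The ranges overlapped on every day, and day 14 held 18 untrained rats and 1 trained rat, so that day and training can hardly be told apart there.

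Between the 2 dissectors 0 members differed in limma-voom, beside 14.9% of all genes, and 0 had an unadjusted p under 0.05. As measured, the medians of Arc were 5.76 for the dissector of 80 rats and 5.13 for the dissector of 165 rats, and those of Fosb 2.76 and 2.09. With the covariates fitted the differences, the dissector of 165 rats minus the other, were -0.08 ± 0.08 (SE) for Arc and -0.02 ± 0.06 for Fosb. Between the left (123 rats) and the right hippocampus (122 rats) 0 members and 0% of all genes passed, with 0 members and 1048 genes (5.39%) at an unadjusted p under 0.05. The difference, right minus left, was above 0 for 8 of the 9 members, the largest being 0.17 ± 0.11 for Egr2.

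The intergenic percentage, as a term of the model, was related to 6 members, beside 77.3% of all genes. Per percentage point Fosb rose by 0.24 ± 0.02 log2 units (SE), Egr1 by 0.23, Arc by 0.20, Nr4a1 by 0.17 and Npas4 by 0.09 (adjusted p = 0.0778), and Junb fell by 0.06. Of all genes 38.9% rose and 38.4% fell. The slopes of Fos (0.02), Egr2 (0.09) and Dusp1 (-0.02) did not pass.

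Trained rats had lower levels of most members than untrained rats in the fitted model. With the covariates of the study, 8 of the 9 members were lower in the 208 trained than in the 37 untrained rats at FDR 0.10, beside 3.85% of all genes called lower and 5.35% called higher. The members share the same rats and are correlated, so calls of several members, here and below, are not separate results. The values as measured overlapped for every member. Egr2 had a lowest value of -2.41, a median of 0.11 and a highest value of 2.80 log2 CPM in trained rats and of -0.28, 0.65 and 3.52 in untrained rats, and the fitted difference, trained minus untrained, was -0.95 ± 0.18 (SE, adjusted p = 0.000224). Fos had values of 1.06, 2.82 and 4.26 against 2.33, 3.26 and 4.67, with a difference of -0.50 ± 0.12 (adjusted p = 0.00343).

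Junb had values of 4.87, 5.65 and 6.56 in trained and 5.36, 5.92 and 6.89 in untrained rats, with a difference of -0.35 ± 0.07 (adjusted p = 0.000207). Dusp1 had values of 3.21, 4.02 and 5.24 against 3.70, 4.41 and 5.39, with a difference of -0.29 ± 0.09 (adjusted p = 0.0246). For these 4 members, Egr2, Fos, Junb and Dusp1, the lowest value and the median were higher in untrained rats. The same held for Arc, Nr4a1, Egr1 and Npas4 below, and a lowest value tends to be lower in the larger group. The highest untrained values of Egr2, Fos, Junb and Dusp1 all belonged to Female 48. Without that rat they were 1.78, 4.05, 6.34 and 5.17 in the same order, each below the highest trained value. The means as measured differed by -0.68, -0.45, -0.29 and -0.40 in the same order.

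For Arc, Nr4a1 and Egr1, which follow the intergenic percentage, the fitted difference was larger than the measured one. It was also larger for Egr2, Fos, Junb and Npas4, and smaller for Dusp1. Arc had values of 3.79, 5.37 and 7.00 in trained and 4.48, 5.51 and 6.79 in untrained rats, with means that differed by -0.19 and a fitted difference of -0.47 ± 0.11 (adjusted p = 0.00221). Nr4a1 had values of 2.96, 4.44 and 6.04 against 3.86, 4.53 and 5.68, with -0.20 as measured and -0.48 ± 0.10 fitted (adjusted p = 0.000712). Egr1 had values of 4.19, 5.49 and 6.66 against 4.65, 5.67 and 6.79, with -0.14 as measured and -0.32 ± 0.08 fitted (adjusted p = 0.0067). In all 3 the ranges of the groups overlapped.

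Npas4 had values of -1.55, 1.11 and 2.94 against -0.57, 1.25 and 3.09, with -0.38 as measured and -0.59 ± 0.16 fitted (adjusted p = 0.0148). Fosb alone was not called: its values were 0.62, 2.41 and 3.75 in trained and 1.13, 2.20 and 3.06 in untrained rats, with means that differed by 0.17, higher in trained rats, and a fitted difference of -0.18 ± 0.09 (adjusted p = 0.245). The direction for Fosb thus depended on the covariates. With sex as the only covariate 5 members were called lower beside 18.1% of all genes (Fos, Junb, Egr2, Npas4 and Dusp1), and the differences of Arc (-0.17, adjusted p = 0.262), Egr1 (-0.14, 0.279) and Nr4a1 (-0.20, 0.136) were not.

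**Figure D4:**
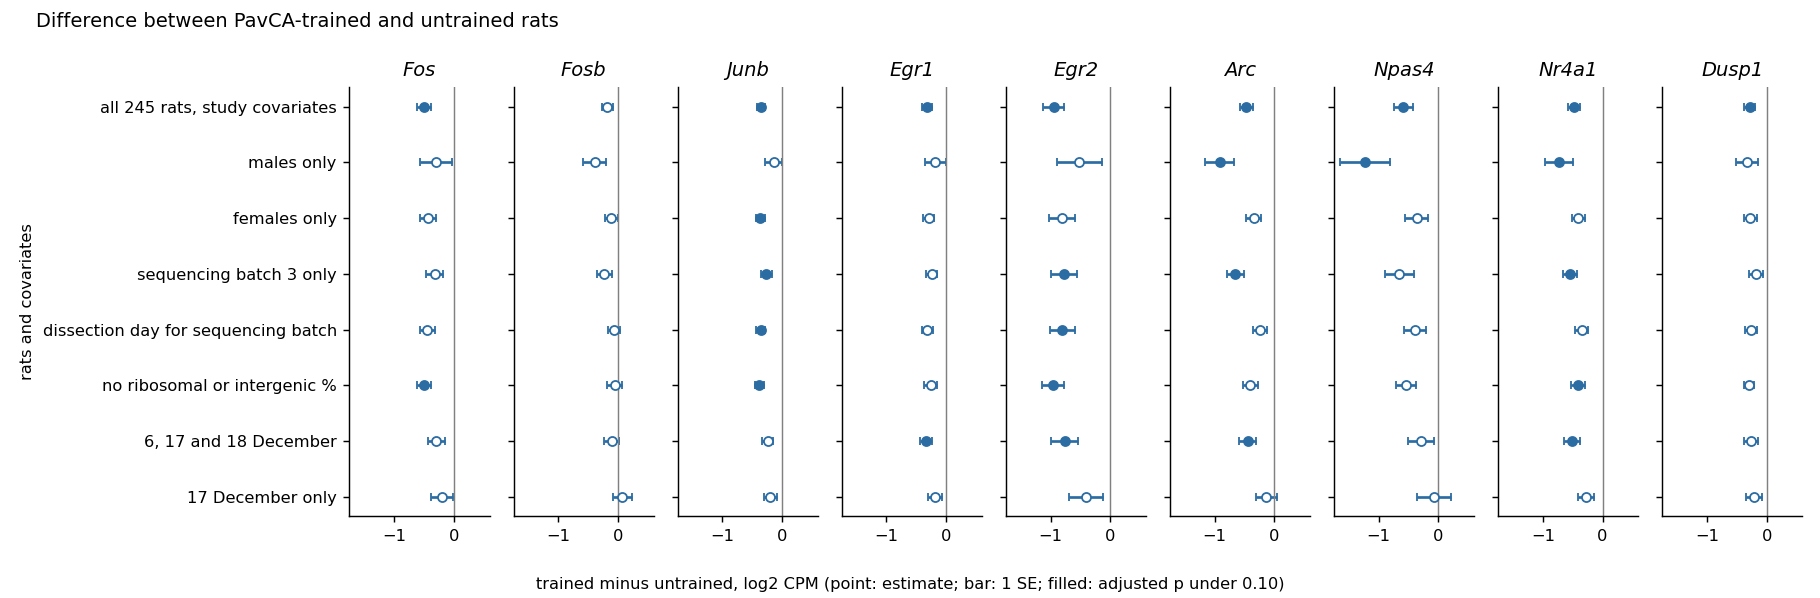
Fitted difference between trained and untrained rats in log2 CPM (trained minus untrained; points are estimates, bars 1 SE, filled points an adjusted p under 0.10), with 1 panel per member and, from the top, rows for all 245 rats, males only, females only, sequencing batch 3 only, dissection day in place of batch, no ribosomal or intergenic percentage, the 3 shared dates and 17 December only; other fits are not drawn. Of the points drawn, only that of Fosb on 17 December lies above 0, and the rows hold 8, 3, 1, 4, 2, 4, 4 and 0 filled points.

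Only 3 dates held both trained and untrained rats. On 6 December (6 and 3 males), 17 December (48 and 9 females) and 18 December (54 and 3 females), fitted with date in the model, 4 members were lower in trained rats, beside 1.32% of all genes called lower: Nr4a1 at -0.51 ± 0.13 (SE, adjusted p = 0.0251), Egr2 at -0.77 ± 0.22 (0.0557), Egr1 at -0.34 ± 0.10 (0.0658) and Arc at -0.45 ± 0.15 (0.0833). The other 5 had differences from -0.10 for Fosb to -0.29 for Fos and Npas4 that did not pass. In 5 other fits 0 members passed: with date as the only covariate (0.0463% of all genes lower), without the ribosomal and intergenic percentages (0.149%), in females only (0%), on 17 December only (0%) and with dissection day in place of batch (0%). At an unadjusted p under 0.05 these fits held 4, 5, 5, 1 and 2 members in limma-voom.

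The clearest separation was on 6 December, in males. Nr4a1 was 4.49, 5.10 and 5.32 in the 3 untrained rats and had a lowest value of 3.37, a median of 3.69 and a highest value of 4.25 in the 6 trained rats. Fosb was 2.33, 2.39 and 2.49 in untrained rats and had values of 1.11, 1.40 and 2.26 in trained rats. Both groups were apart for these 2 members, whereas Arc, at 5.12, 6.11 and 6.16 untrained and 3.85, 4.16 and 5.13 trained, overlapped by 1 rat. The males of this date were dissected on day 10 (4 rats), day 11 (2 rats) and day 14 (3 rats). Over all dates, day 10 held only trained rats, and day 14 held 18 untrained rats and 1 trained rat. Training and dissection day can thus hardly be told apart among these males.

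On 17 December, the largest date, the picture depended on the adjustment. As measured, 5 of the 9 members had a lower mean in trained rats, and Fosb was higher by 0.56, Arc by 0.16, Npas4 by 0.09 and Egr1 by 0.07. After adjustment 8 of the 9 were lower, with -0.28 for Arc and -0.24 for Egr1, and only Fosb was higher, by 0.07. On 6 December 8 members were lower as measured and 9 adjusted, and on 18 December 8 and 9.

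Single rats mattered little over all dates and much on the shared dates. With each of the 37 untrained rats left out in turn, 8 members were called each time. On the shared dates the count fell to 1 without Female 48 (18 December), Female 124 (17 December) or any of Male 123, Male 124 and Male 125 (the 3 untrained rats of 6 December), and to 2 without Female 125 (17 December), while the call of Nr4a1 was kept in all 15.

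Training moved together with other features of the rats and libraries. Sequencing batch 3 held 30 of the 37 untrained rats and 26 trained rats, and dissection day 14 held 18 of the untrained rats and 1 trained rat. Within batch 3 alone 4 members passed beside 3.07% of all genes lower, Egr2 (-0.77, adjusted p = 0.0391), Arc (-0.65, 0.0156), Nr4a1 (-0.55, 0.0158) and Junb (-0.26, 0.097), and the other 5 had differences below 0. With dissection day in place of batch 2 members passed beside 0.118%, Junb (-0.36, adjusted p = 0.0188) and Egr2 (-0.80, 0.083), and without day 14 there were 6 beside 3.22%, Arc (adjusted p = 0.11) and Npas4 (0.103) being lost. Without the ribosomal and intergenic percentages 4 passed beside 0.293%, Fos, Junb, Egr2 and Nr4a1.

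Families 11 and 12 held 14 and 9 of the untrained rats, and with family added 8 members passed beside 4.93% of all genes lower. The median age was 125 days in untrained and 123 days in trained rats, and with age added 7 passed beside 2.04%, without Dusp1 (adjusted p = 0.109). The mean ribosomal percentage was 1.38 in untrained and 1.09 in trained rats and the mean intergenic percentage 12.75 and 13.48. Beyond these fits, the part of these features in the members' difference was not tested.

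In males alone 3 members passed beside 5.45% of all genes lower, Arc (-0.92, adjusted p = 0.00658), Npas4 (-1.23, 0.0457) and Nr4a1 (-0.73, 0.0275), and in females alone 1 beside 0.0257%, Junb (-0.36, 0.0832). The difference was below 0 in both sexes for all 9 members. A test of whether the training difference itself depended on sex called 0 members, beside 0.293% of all genes, with Npas4 at an unadjusted p of 0.0447.

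Of the 5 other activity-regulated genes, 1 was lower in trained rats, Dusp5 (-0.23 ± 0.08 SE, adjusted p = 0.0555), and Homer1 (-0.08), Sgk1 (-0.08), Plk2 (-0.05) and Pcsk1 (0.05) did not pass. On the shared dates 0 of the 5 passed, and 0 had an unadjusted p under 0.05. Of 9 markers with an identifier, for astrocytes, neurons, oligodendrocytes, choroid plexus, red blood cells and thalamus, 1 passed: Tcf7l2 was higher in trained rats by 0.62 ± 0.18 (adjusted p = 0.0179), and by 0.13 (0.793) on the shared dates. Its values overlapped, with 1.26, 3.01 and 6.16 in trained and 1.97, 3.42 and 5.03 in untrained rats, so that its median as measured was lower in trained rats. The neuronal genes Rbfox3 (-0.03 ± 0.04) and Mef2c (0.00 ± 0.05) did not pass, and no marker was at 0 in any rat. As measured, the choroid plexus gene Folr1 had a mean of 4.07 in trained and 4.71 in untrained rats and the red blood cell gene Hbb 7.40 and 8.01, lower in trained rats like 8 of the 9 members as measured, with fitted differences of -0.33 ± 0.24 (adjusted p = 0.488) and -0.10 ± 0.11 (0.697) that did not pass. The part of Tcf7l2, Folr1 and Hbb in the members' difference was not tested.

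Levels of the members were not shown to differ by sex: 0 passed, beside 9.08% of all genes, and 1 (Arc) had an unadjusted p under 0.05, as did 19% of all genes. Arc had a lowest value of 3.85, a median of 5.37 and a highest value of 6.50 in males and of 3.79, 5.41 and 7.00 in females, with a fitted difference, female minus male, of 0.14 ± 0.06 (SE, adjusted p = 0.149). DESeq2's Wald test called Arc (adjusted p = 0.0871) and no other member. Families differed for 2 members, Fosb (adjusted p = 0.000441) and Egr1 (0.0322), beside 56.3% of all genes. As measured, Fosb had medians from 1.58 in family 10 (15 rats) to 2.66 in family 2 (20 rats), with ranges that overlapped. Adjusted for the covariates, its medians ran from 2.05 in family 10 to 2.56 in family 3, with 2.37 in family 2.

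The behaviors were tested because the series relates hippocampal expression to temperament. LocoScore counts the beams a rat breaks in a new enclosure, and it was related to 0 members, beside 0.0103% of all genes (2 genes). Slopes per 100 beam breaks ran from -0.001 ± 0.008 log2 units (SE) for Egr1 to 0.031 ± 0.016 for Npas4, and only Arc, at 0.020 ± 0.010, had an unadjusted p under 0.05 (p = 0.0426, limma-voom), as did 1018 genes (5.23%). The Arc slope was -0.007 in males only and 0.037 in females only, and a test of the difference between the sexes did not pass (adjusted p = 0.204). No member passed that interaction, beside 0.329% of all genes, and 3 (Fos, Fosb and Arc) had an unadjusted p under 0.05. With DESeq2's Wald test 0 members were related to LocoScore, and Arc and Junb had an unadjusted p under 0.05.

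On the EPM, the share of time spent on the open arms, a measure of low anxiety, was related to 0 members and 0% of all genes after adjustment. All 9 slopes were above 0, and 4 members had an unadjusted p under 0.05, as did 759 genes (3.9%): per 10 percentage points the slope was 0.12 ± 0.04 log2 units for Npas4 (p = 0.00607, limma-voom), 0.06 ± 0.03 for Arc (p = 0.0309), 0.06 ± 0.03 for Nr4a1 (p = 0.0324) and 0.04 ± 0.02 for Junb (p = 0.0492), each with an adjusted p of 1. The 9 slopes share the same rats and the members are correlated, so their common sign is not 9 separate results. With sex as the only covariate the slopes were 0.07 for Npas4 (p = 0.177) and 0.03 for Arc (p = 0.489), and in males only 0.07 and -0.0001.

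EPM distance (244 rats) and time immobile were each related to 0 members and 0% of all genes, with 0 members at an unadjusted p under 0.05 beside 728 genes (3.74%) and 830 genes (4.27%). The PavCA Index, which runs from goal-tracking (below 0) to sign-tracking (above 0) and was given for 205 rats, was related to 0 members, beside 0.00514% of all genes (1 gene), and again 0 members had an unadjusted p under 0.05, beside 720 genes (3.7%). The widest slope was 0.13 ± 0.10 log2 units per unit of the index for Npas4.

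**Figure D5:**
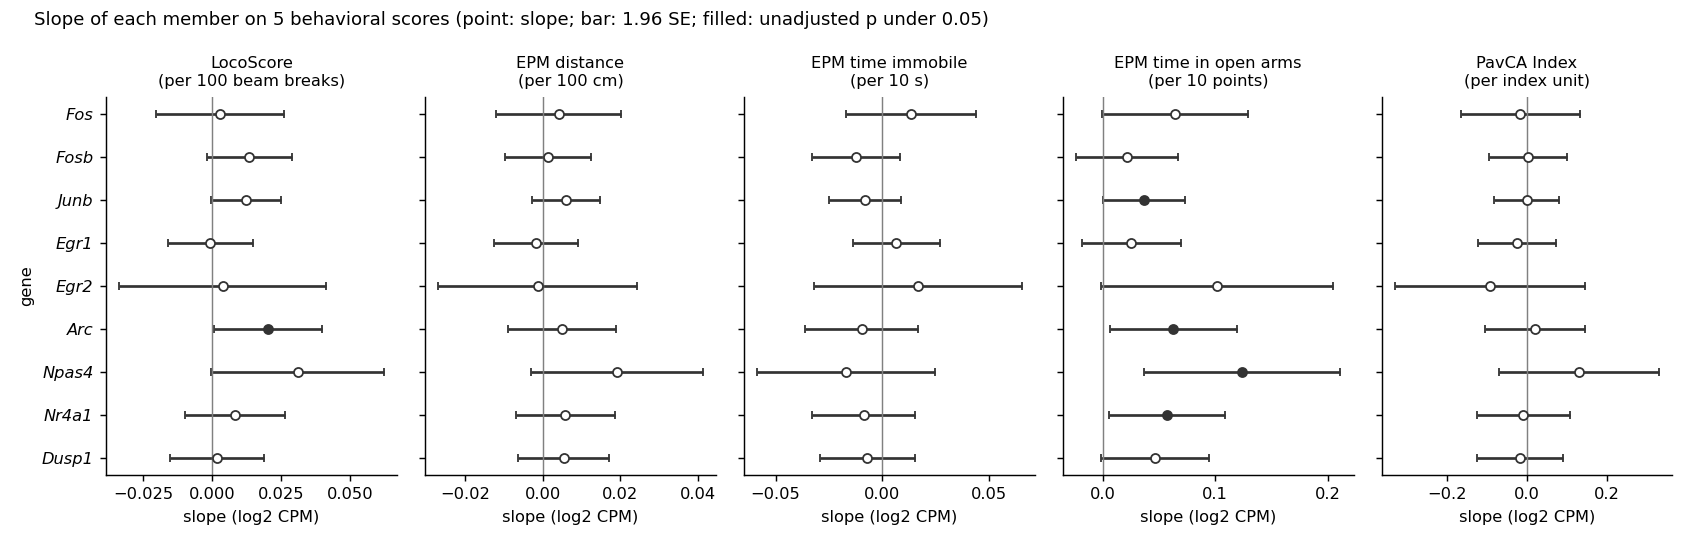
Slopes of the 9 members on each of 5 behaviors, in log2 CPM per unit named above each panel, from the covariate model; points are slopes, bars an approximate 95% interval and filled points an unadjusted p under 0.05. The only filled points are Arc for LocoScore and Junb, Arc, Npas4 and Nr4a1 for time in the open arms, where all 9 points for time in the open arms lie above 0.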

How the data were processed

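Hippocampal polyA RNA was sequenced in 250 F2 rats, and the members and gene lists were chosen with earlier results of these data known. The authors deposited raw read counts per gene without normalization, from reads aligned with STAR 2.7.3a to Rnor6 and counted with Subread 2.0.0 on Ensembl 103. No sample column was left unused. The 19448 genes that had 1 read or more in 25% of the rats were scaled by TMM (trimmed mean of M-values) in edgeR 4.0.16 and tested with limma-voom (limma 3.58.1, R 4.3.3), with Benjamini-Hochberg adjustment over all genes at FDR 0.10. The model held sex, ribosomal and intergenic percentages, dissector, PavCA experience and sequencing batch, as in the study's methods, beside the behavior. The labelled intergenic percentage was damaged and was recomputed as the remainder of the mRNA, intronic and ribosomal fractions, and the 3 batches were read from breaks in the title numbers. Log2 CPM used a prior count of 0.5. Correlations were tested with 100000 permutations in scipy 1.17.1. The limma-voom fits of training, LocoScore, date of death and dissection day were tried on simulated counts, and the correlations were not. Named genes were the 9 members, up to 10 genes most like them and the activity-regulated genes with an identifier; of the genes most like them 2 are printed. Alternatives included edgeR's quasi-likelihood test and DESeq2 1.42.0, other filters and covariates, and subsets of rats. The sequencing batch 3, age, family, dissection day 14, 17 December, RNA percentage, left-out rat and sex interaction fits of training, and the sex interactions of behavior, were chosen after seeing the data.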

Additional observations from a re-analysis of the deposited data

Results flagged for a closer look

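Single rats stood apart from the rest of their group for 5 members (4 rats), in 5 of 36 checks of a member in a group of 6 to 10 rats that shared date of death and training, by a gap to the nearest rat that was large for the range of the group. Such checks flag about 1 in 20 groups by chance. Among the trained males of 6 December, Male 105 had the highest Egr2, 1.53 log2 CPM, against 0.24 in the next rat, and Male 100 the highest Arc, 5.13 against 4.28. Among the untrained females of 13 December, Female 122 had the lowest Egr1, 5.04 against 5.61 in the next rat, and the lowest Nr4a1, 4.03 against 4.53. Among the untrained females of 17 December, Female 60 had the highest Fosb, 3.06 against 1.98.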

How the results depend on the processing

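The training result depended on the model. The 8 members called over all rats became 5 with sex as the only covariate, 2 with dissection day in place of batch, 3 in males only, 1 in females only, 4 in batch 3 only and 4 without the ribosomal and intergenic percentages, and 8 to 8 with each untrained rat left out. On the shared dates the 4 calls became 0 with date as the only covariate, in females only, on 17 December only, without the percentages and with dissection day in place of batch, and 1 to 4 with each untrained rat left out. The 3 calls by date in males became 1 with edgeR's quasi-likelihood test and 5 without covariates. Those in females became 1 with that test, 0 with PavCA experience added and 0 with dissection day in place of batch. The 2 calls in trained males became 0 without covariates and 0 with dissection day. The 0 calls by dissector and by sex each became 1 in batch 1 only (Arc by dissector, Fos by sex), and by sex 1 with DESeq2. The 2 calls by family became 4 with a filter of 1 CPM and 4 with the quasi-likelihood test. Fewer rats were fitted in each subset, and for the other changes the cause was not tested. Signs turned for the dissector difference of Egr2 (-0.0682, batch 1 only), the side difference of Dusp1 (-0.0184, batch 1 only) and the LocoScore slope of Arc (-0.00711, males only). The members called in a comparison, or 1 member where none was called, were followed over the other alternatives. Of their values 346 kept their direction and side of the threshold, 90 lost a call or a p under the threshold, 1 gained one and 3 turned. Other members were not followed, so gains among them are not in this count. Counts of 3 to 238 reads limit Egr2 most. No paired analysis was possible because the labels give no replicate number shared between groups.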

Other observations

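As shares of the variance of log2 CPM over 245 rats that were lost when a term left a model of date, dissection and RNA percentages, and with no test, dissection day accounted for 12.1% of Fos, 10.5% of Egr2 and 10.4% of Npas4, beside a median of 3.9% and a 95th percentile of 12.4% over all genes. Date of death within sex accounted for 8.65% of Egr2, 7.64% of Fos and 5.68% of Junb, beside a median of 1.98% and a 95th percentile of 6.29%. Family accounted for 10.9% of Egr2 and 10.2% of Fos, beside a median of 2.83% and a 95th percentile of 9.07%. Neither passed the fitted test of family above, in which only Fosb (share 4.24%) and Egr1 (share 5.94%) were called. The ribosomal and intergenic percentages accounted for 25.8% of Fosb, 24.4% of Egr1, 21.8% of Nr4a1 and 19.5% of Arc, around the median of 20% over all genes, but for 0.136% of Fos, 0.532% of Dusp1 and 0.802% of Egr2. LocoScore accounted for at most 0.816% of any member, that of Junb. Fosb, Egr1, Arc and Nr4a1 thus followed the RNA percentages most, and Fos, Egr2 and Dusp1 hardly did. Junb (5.36%) and Npas4 (5.71%) lay between them. This ordering was seen in the data and not tested.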
